A study of Mus musculus with 6 samples.

Results

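The collagen genes and the enzymes that hydroxylate, fold and cross-link collagen chains were followed in brown adipose tissue, the heat-producing fat depot, of mice lacking the transcription factor Yin Yang 1 (Yy1) in brown fat. Members were every probe set with a single platform gene symbol of the form Col, digits, a, digits, together with the lysyl oxidases Lox, Loxl1, Loxl3 and Loxl4, the lysyl hydroxylases Plod1, Plod2 and Plod3, the prolyl 4-hydroxylase subunits P4ha1 and P4ha2, and the chaperone gene Serpinh1. They came to 74 probe sets of 22690 in all, which stood for 46 genes of the 12393 tested, 36 of them collagens and 10 of them enzymes or the chaperone. Loxl2 was not analysed here.

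The control group (n = 3 arrays) was YY1flox/flox, and the YY1bKO group (n = 3 arrays) was YY1flox/flox with Ucp1Cre, so both groups carried the floxed alleles. The Cre is driven by the promoter of Ucp1, a gene of brown adipocytes, whereas most collagen in fat is made by fibroblasts, mural cells and endothelial cells that do not use that promoter. All mice were 3.5 months old, had a mixed C57BL6 and 129 background and received high fat food for 3 months. Values are log2 of the RMA intensity of each gene's brightest probe set, and the number of arrays limits the precision of each.

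Collagens are trimers of chains with a long glycine-rich helix. Prolyl and lysyl hydroxylases modify the chains in the endoplasmic reticulum, the chaperone encoded by Serpinh1 binds the folded trimer, and lysyl oxidases cross-link collagen and elastin outside the cell. In adipose tissue collagen I, III, V and VI chains form the stroma around fat cells, and collagen IV lies in the basement membrane that surrounds each adipocyte and capillary.

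Yy1, the targeted gene, measured 9.90, 9.62 and 9.95 in control and 8.38, 8.41 and 8.38 in YY1bKO arrays, a log2 fold change of -1.43 ± 0.10 (SE; limma adjusted p = 0.000854). All 12 measured brown adipocyte markers lay above the median intensity of all probe sets, Ucp1 at 13.92 ± 0.06 in control and 13.78 ± 0.08 in YY1bKO tissue (SD, n = 3). The summed linear intensity of 18 skeletal muscle markers was 207418 in control array 2, against 36757 and 44839 in the other control arrays and 79256 to 107922 in YY1bKO arrays. Of these markers 2 were higher and 0 lower, or 11.1% and 0%, against 10.2% and 8.09% of all genes. The 2 were Myh7 (1.72, limma adjusted p = 0.00551) and Tnnt1 (1.59, 0.00437), each called without any 1 array. Unlike the sum, they were not high in control array 2, at 9.06 and 8.73, the lowest control value of each. Without control array 2, 17 of the 18 markers were higher, as were 13.4% of all genes. Control array 2 also stood apart from the other 5 arrays on the second principal component, which held 36.0% of the variance.

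Of the 46 member genes, 3 were higher and 2 lower in YY1bKO tissue in limma at an adjusted p under 0.05. That is 10.9% of the members, while 18.3% of all genes were called. By direction, 6.52% of the members were called higher against 10.2% of all genes, and 4.35% were called lower against 8.09%. Lox and Col8a1 fell, and Col11a2, Col20a1 and Col7a1 rose. The groups did not overlap for 10 members, or 21.7%, against 38.5% of all genes. The median log2 fold change was -0.08 over the members and 0.04 over all genes. Of the members 22 had a mean above 6.48, the median log2 intensity of all probe sets, and Lox was the sole called gene among these 22. The remaining 24, below called dim, held the other 4 called genes. The count of lower members was 1 without control array 1 or without any 1 of the YY1bKO arrays, fits in which 3.76% to 4.37% of all genes were lower. It was 9, or 19.6% of the members against 6.39% of all genes, without control array 3.

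**Figure D1:**
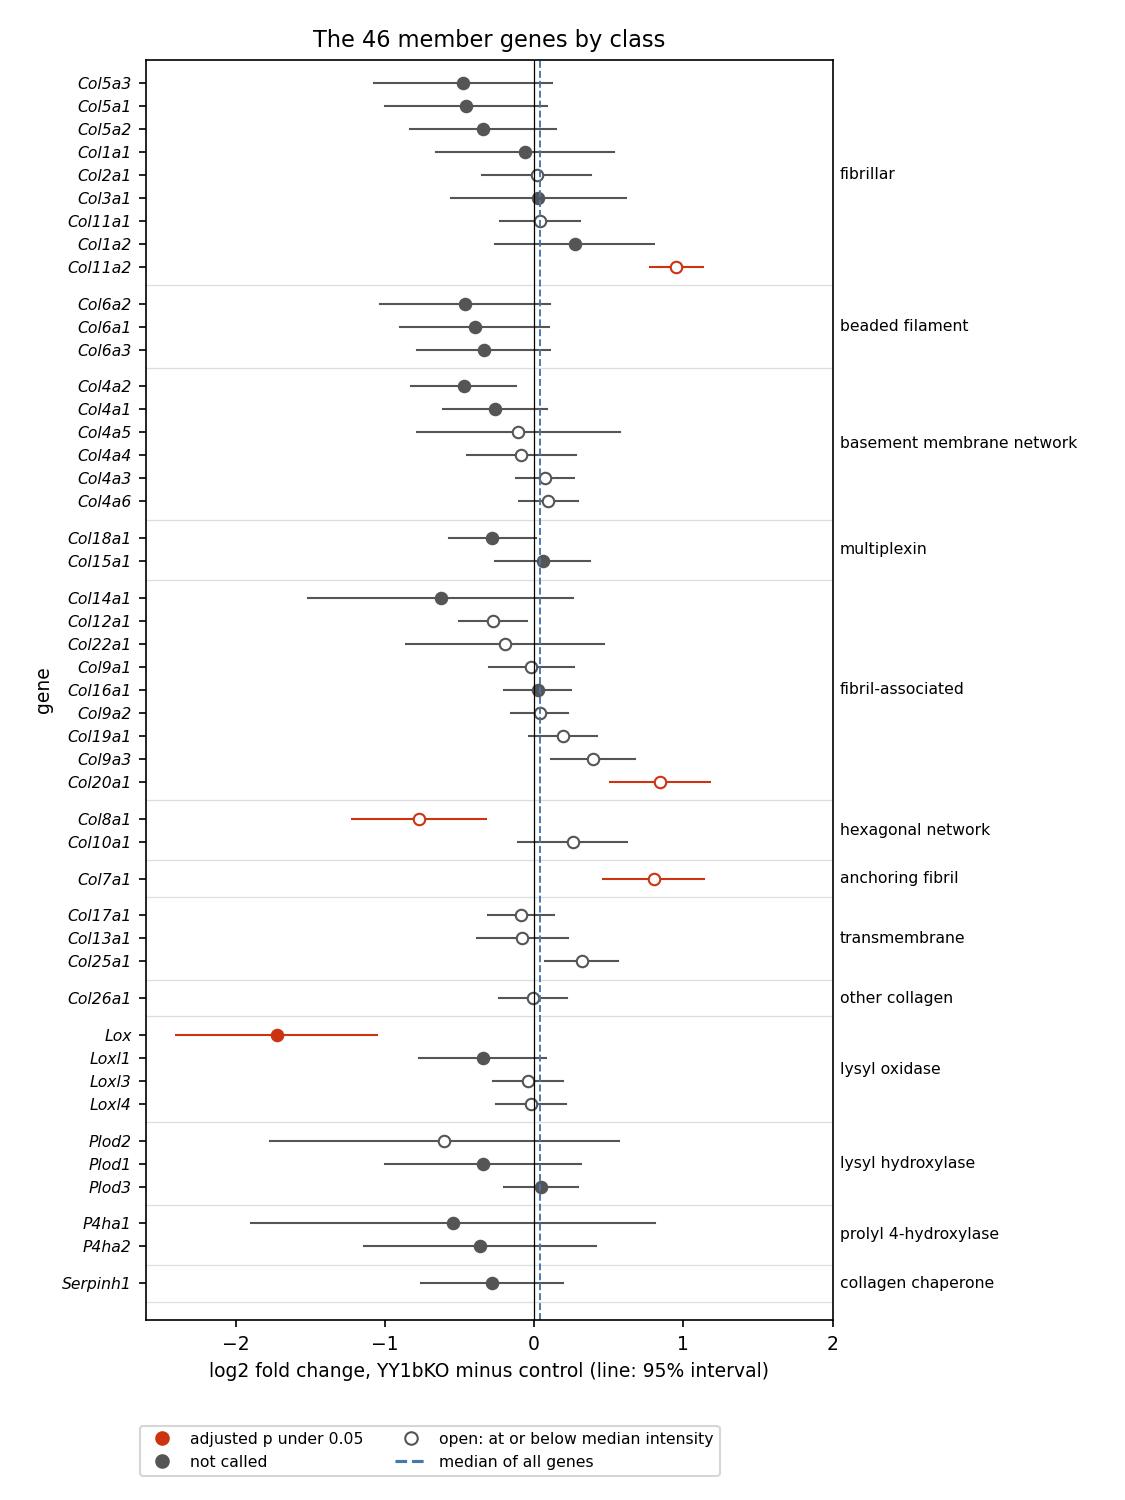
Log2 fold change (YY1bKO minus control, horizontal axis) of the 46 member genes, grouped by class, with lines for 95% intervals from limma; red marks the 5 genes with an adjusted p under 0.05, and open circles mark genes at or below the median intensity. Lox lies farthest to the left at -1.73, Col11a2 farthest to the right at 0.95, and the dashed line is the median of all genes, 0.04.

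Lox encodes lysyl oxidase, the founding enzyme of the family that starts covalent cross-links between collagen molecules. Its brightest probe set read 9.87, 8.65 and 9.23 in control and 7.45, 7.51 and 7.61 in YY1bKO arrays. All 3 YY1bKO values lay below the lowest control value, and the YY1bKO arrays were close together while the controls were spread out. Lox was 3.31-fold lower (log2 fold change -1.73 ± 0.28, SE; limma adjusted p = 0.00951). The call was kept when any single array was left out, with adjusted p from 0.0011 to 0.0442 and log2 fold changes from -2.03 to -1.41. With the mean of the skeletal muscle markers as a covariate the log2 fold change was -1.55 (adjusted p = 0.00231), and with the mean of the fibroblast markers it was -1.78 (adjusted p = 0.00589). Both covariates were chosen after seeing the data, and 0 of the 14 fibroblast markers were themselves called. Endothelial and pericyte markers were not used as covariates, so their part in the Lox values was not tested.

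The other probe sets of Lox fell as well. The second bright one read 9.30, 8.09 and 8.71 in control and 7.44, 6.88 and 7.26 in YY1bKO arrays, a fall by 1.51 on the log2 scale (adjusted p = 0.0188 over all probe sets). The remaining, dim one fell by 0.42 (adjusted p = 0.02). None of these 3 probe sets had overlapping groups.

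The relatives of Lox were not called. Loxl1, an enzyme tied to elastic fibres, read 8.81, 8.98 and 8.30 in control and 8.36, 8.46 and 8.23 in YY1bKO arrays. The groups overlapped through control array 3, and the difference of -0.34 had a 95% interval of -0.77 to 0.08 (limma adjusted p = 0.238). Without control array 3 it was -0.54 (adjusted p = 0.0313). Loxl3 and Loxl4 were dim, at -0.04 and -0.02, with intervals from -0.28 to 0.20 and from -0.25 to 0.21. Of the 4 lysyl oxidase genes, Lox alone was called in limma, with 1 lower and 0 higher also at a raw p under 0.05. By adjusted p that is 25.0% lower and 0% higher, against 8.09% and 10.2% of all genes.

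Elastin and the microfibril proteins are the other matrix partners of lysyl oxidases. Among 11 measured elastic fibre genes, 3 were lower and 0 higher (4 and 0 at a raw p under 0.05 in limma), with a median log2 fold change of -0.12. That is 27.3% lower, against 8.09% of all genes. The 3 lower genes belong to the family named latent TGF-beta binding proteins, which are proteins of microfibrils. Ltbp2 read 8.98, 8.77 and 9.32 in control and 7.62, 7.62 and 7.75 in YY1bKO arrays, a 2.57-fold lower level (adjusted p = 0.00267) that was called without any 1 array. Ltbp3 fell by 0.63 and Ltbp4 by 0.30 on the log2 scale, and the call of Ltbp4 was lost with limma's trend and robust options (adjusted p = 0.0636). Elastin itself (Eln) was not called, at -0.11 (adjusted p = 0.385). Only 1 gene was lower when control array 1, YY1bKO array 2 or YY1bKO array 3 was left out. In these fits 3.76% to 4.37% of all genes were lower.

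Col8a1, a chain of the network collagen VIII found beneath endothelium and in vessel walls, read 6.45, 6.78 and 6.20 in control and 5.95, 5.42 and 5.73 in YY1bKO arrays. The groups did not overlap, but the gap between YY1bKO array 1 and control array 3 was narrow. Col8a1 was 1.71-fold lower (-0.77 ± 0.19, SE; limma adjusted p = 0.0336). Its call was lost without control array 1 (adjusted p = 0.0908), YY1bKO array 1 (0.0525), YY1bKO array 2 (0.107) or YY1bKO array 3 (0.1). The second Col8a1 probe set, near the floor of the arrays at 3.34 in both groups, gave 0.00 (adjusted p = 0.986), and the mean over both was not called (-0.39, adjusted p = 0.0624). The other network chain gene measured, Col10a1 of hypertrophic cartilage, was dim and gave 0.26 (adjusted p = 0.303).

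Col11a2, a chain of the cartilage fibril collagen XI, read 4.20, 4.34 and 4.28 in control and 5.21, 5.27 and 5.20 in YY1bKO arrays. Both groups were tight and far apart for a dim probe set. The rise was 1.94-fold (0.95 ± 0.07, SE; limma adjusted p = 0.0011) and was called without any 1 array. Col11a2 had 1 probe set on the array. The other chain of collagen XI on the array, Col11a1, gave 0.04 (adjusted p = 0.85), and Col2a1, the main cartilage collagen, gave 0.02 (adjusted p = 0.957). Of 10 cartilage and tendon markers 9 were dim and 0 were called in limma (0 higher and 1 lower at a raw p under 0.05), and their summed intensity was 251 to 571 in control and 250.4 to 266 in YY1bKO arrays.

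Col20a1, a fibril-associated collagen, rose in all 3 of its probe sets. The brightest read 5.86, 6.03 and 6.28 in control and 6.90, 7.07 and 6.72 in YY1bKO arrays, with a gap between the groups. It was 1.79-fold higher (0.84 ± 0.14, SE; limma adjusted p = 0.00982), and the others gave 0.68 (adjusted p = 0.00875) and 1.14 (adjusted p = 0.00165) over all probe sets. The call was kept when any single array was left out, with adjusted p up to 0.0439.

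Col7a1, which forms the anchoring fibrils that tie epithelia to the stroma beneath them, read 5.75, 6.32 and 6.01 in control and 6.83, 6.84 and 6.81 in YY1bKO arrays. The YY1bKO values were nearly equal and lay above every control value. The rise was 1.74-fold (0.80 ± 0.14, SE; limma adjusted p = 0.0126). Without YY1bKO array 1, 2 or 3 the adjusted p was 0.052, 0.055 and 0.0513, so the call was lost in each case while the log2 fold change stayed between 0.79 and 0.81.

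**Figure D2:**
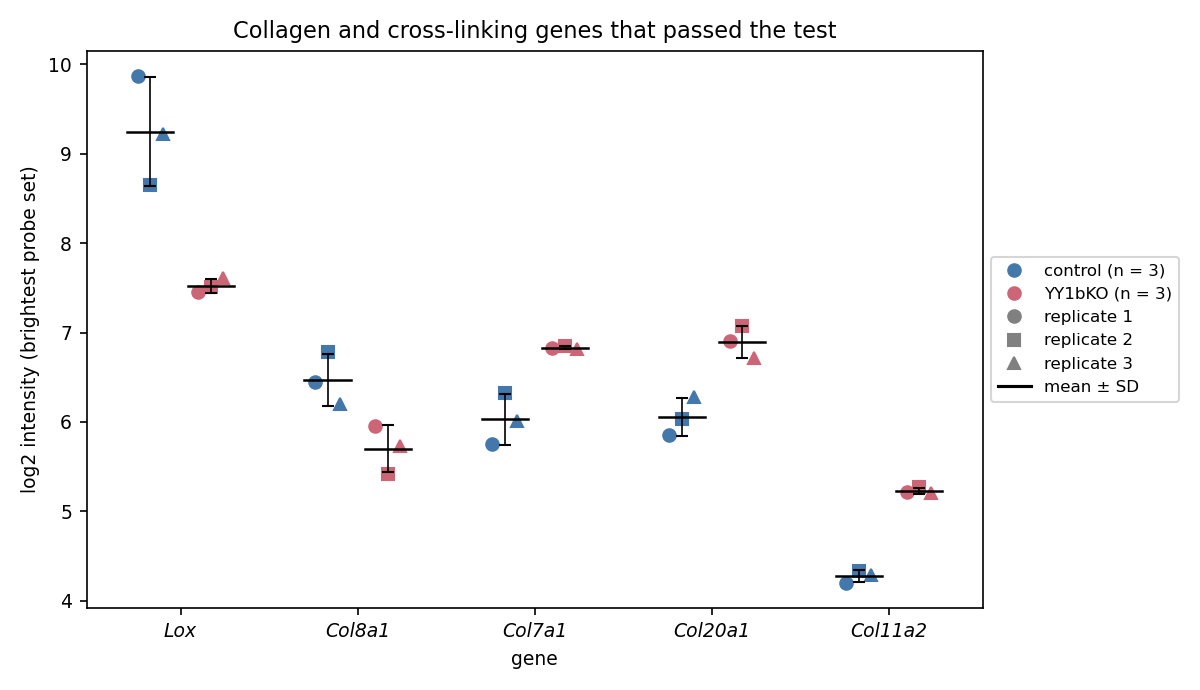
Log2 intensity (vertical axis) of the brightest probe set of the 5 called member genes in each of 3 control (blue) and 3 YY1bKO (red) arrays, with marker shapes for replicates and bars for mean and SD. The groups do not overlap for any of the 5 genes; Lox control values spread from 8.65 to 9.87 while the YY1bKO values lie between 7.45 and 7.61.

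Promoter letters are shown for 3 of the 4 called collagens, which differed in direction in the same tissue. The window of the fourth, Col20a1, lies inside the span of its own gene, holds 0 matches to the motifs searched and is not printed. Promoter windows of RefSeq (GRCm38.p6), 250 bases before to 50 after a start site, were at hand for 33 of the 46 member genes, in 36 windows, and the bases before the start are printed 5′ to 3′ for Col11a2 (chr17:34038888-34039137, plus strand), Col7a1 (chr9:108953336-108953585, plus strand) and Col8a1 (chr16:57754738-57754987, minus strand). Capitals mark the TATA-type motif TATAAA, the box CCAAT and the Sp1-type box GGGCGG, each on either strand, and none of the marked motifs overlap.
Col11a2: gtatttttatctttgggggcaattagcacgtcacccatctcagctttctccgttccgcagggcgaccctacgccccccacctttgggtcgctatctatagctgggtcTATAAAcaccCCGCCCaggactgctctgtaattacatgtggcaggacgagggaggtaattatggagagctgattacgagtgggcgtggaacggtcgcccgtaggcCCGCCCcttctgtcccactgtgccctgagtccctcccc
Col7a1: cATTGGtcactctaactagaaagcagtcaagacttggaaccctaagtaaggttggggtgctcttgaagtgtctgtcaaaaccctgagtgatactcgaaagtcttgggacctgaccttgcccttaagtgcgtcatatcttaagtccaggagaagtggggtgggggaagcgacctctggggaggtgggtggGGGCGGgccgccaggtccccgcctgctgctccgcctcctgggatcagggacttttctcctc
Col8a1: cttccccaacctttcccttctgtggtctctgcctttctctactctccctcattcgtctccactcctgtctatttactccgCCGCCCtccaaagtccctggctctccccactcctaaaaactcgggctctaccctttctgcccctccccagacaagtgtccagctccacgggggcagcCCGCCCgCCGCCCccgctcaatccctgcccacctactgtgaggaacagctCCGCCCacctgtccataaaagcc

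A GGGCGG box on either strand stood in 22 of the 36 member windows, or 61.1%, against 35.7% of 32851 windows in all. Among the 4 called collagens, Col8a1 held 4 such boxes before its start, Col11a2 held 2, Col7a1 held 1 and Col20a1 held 0. TATAAA was in 19.4% of member windows and 13.6% of all windows, and CCAAT in 36.1% and 37.4%. The letters AANATGGC, a core of the Yy1 motif, were found on either strand in 1 member window, that of Plod3, or 2.78% against 6.05% of all windows. Lox, Loxl1, Col1a1 and Col5a2 were among the members without a window, so their promoters were not searched. Plod3 was not called (0.05, limma adjusted p = 0.803). These are counts of letters in short windows and say nothing about binding.

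The fibrillar collagens that make up most stromal collagen were not called. Col1a1, a chain of collagen I, read 8.60, 8.03 and 7.58 in control and 8.15, 8.08 and 7.80 in YY1bKO arrays. The YY1bKO values sat inside the control range, and the difference of -0.06 had a 95% interval of -0.66 to 0.54 (limma adjusted p = 0.897). Col1a2, the partner chain, read 11.97, 11.76 and 11.09 against 11.97, 11.91 and 11.75 and gave 0.27, with an interval of -0.26 to 0.80. Col3a1, the chain of collagen III, read 12.46, 12.14 and 11.44 against 12.14, 11.95 and 12.02 and gave 0.03, with an interval of -0.56 to 0.62. In all 3 genes control array 3 was the lowest of the 6 arrays.

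Collagen V, which sets fibril diameter, had negative differences in the brightest probe sets of all 3 measured chains, without a call. Col5a1 read 8.94, 9.03 and 8.20 in control and 8.44, 8.28 and 8.08 in YY1bKO arrays, a difference of -0.45 (interval -0.997 to 0.09). Col5a2 gave -0.34 (interval -0.83 to 0.15) and Col5a3 gave -0.48 (interval -1.07 to 0.12). Their other probe sets were nearer to 0, with -0.29 and -0.001 for Col5a1, -0.02 for Col5a2 and 0.10 for Col5a3. Collagen VI, the beaded filament collagen of the adipocyte surround, also had negative differences in all 3 measured chains, without a call. Col6a1 gave -0.40 (interval -0.90 to 0.10), Col6a2 gave -0.46 (interval -1.03 to 0.10) and Col6a3 gave -0.34 (interval -0.78 to 0.11), with limma adjusted p of 0.245, 0.236 and 0.266. For Col6a3 the arrays read 10.42, 10.39 and 9.76 in control and 9.99, 9.78 and 9.78 in YY1bKO tissue, so control array 3 was level with the YY1bKO arrays.

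These values depended on control array 3. Without it Col5a1 was at -0.72 (limma adjusted p = 0.0237), Col5a2 at -0.58 (0.0242), Col6a1 at -0.64 (0.0216), Col6a2 at -0.72 (0.0356) and Col6a3 at -0.55 (0.0252). Col14a1, a fibril-associated collagen, moved from -0.63 (adjusted p = 0.304) to -1.07 (0.0208). Its arrays read 8.19, 8.76 and 7.14 in control and 7.46, 7.37 and 7.39 in YY1bKO tissue. Among the 15 collagens with a mean above the median intensity, control array 3 was the lowest control array for 13 and control array 2 for the other 2.

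The summed fibroblast markers were also lowest in that array. Of 14 measured fibroblast markers, 0 were called in either direction by limma, also 0 at a raw p under 0.05, and 12 of the 14 were above the median intensity. Their summed intensity was 9805 in control array 3, 13124 and 18815 in the other control arrays and 12447 to 16270 in YY1bKO arrays. Dcn, the decorin gene, read 11.84, 12.47 and 11.25 in control and 12.23, 12.16 and 11.96 in YY1bKO arrays, and Pdgfra, a receptor of fibroblasts, read 8.47, 9.35 and 8.15 against 8.63, 8.42 and 8.31. Without control array 3, 2 of the 14 were lower, as were 6.39% of all genes. With the mean of the fibroblast markers as a covariate 3 members were higher and 2 lower, or 6.52% and 4.35%, against 12.1% and 10.9% of all genes in that fit. In bulk tissue fewer cells of a type and less RNA per cell cannot be told apart.

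**Figure D3:**
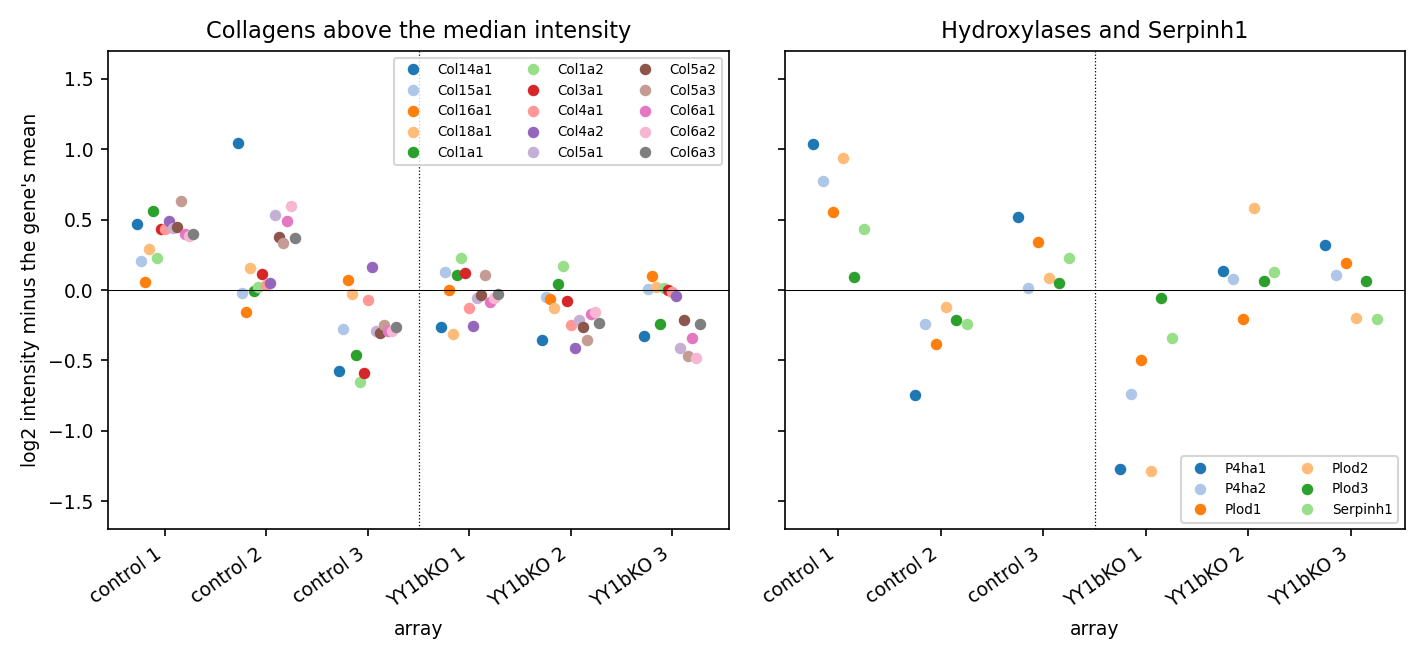
Log2 intensity of each gene minus its mean over the 6 arrays (vertical axis), by array, for the 15 collagens above the median intensity (left) and for the 5 hydroxylase genes and Serpinh1 (right); each point is 1 gene, offset sideways to part them. Control array 3 is the lowest control array for 13 of the 15 collagens, and control array 2 and YY1bKO array 1 are the lowest of their groups for all 6 genes on the right.

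The enzymes that modify the chains inside the cell followed another split of the arrays. P4ha1, the catalytic subunit of prolyl 4-hydroxylase, read 9.37, 7.59 and 8.85 in control and 7.06, 8.47 and 8.66 in YY1bKO arrays. Its lowest values came from 1 array of each group, control array 2 and YY1bKO array 1, so the SD was 0.92 in control and 0.87 in YY1bKO tissue. The difference of -0.54 had a 95% interval of -1.90 to 0.81 (limma adjusted p = 0.566). P4ha2, a second catalytic subunit, read 8.80, 7.78 and 8.04 against 7.29, 8.11 and 8.14 and gave -0.37 (interval -1.14 to 0.41). Plod2, the hydroxylase of telopeptide lysines, read 7.35, 6.29 and 6.495 against 5.13, 6.99 and 6.21 and gave -0.60 (interval -1.77 to 0.57).

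Plod1, which hydroxylates helical lysines, read 8.76, 7.82 and 8.54 in control and 7.71, 7.99 and 8.39 in YY1bKO arrays and gave -0.34 (interval -0.999 to 0.32). Serpinh1, the gene of the collagen chaperone HSP47, read 11.07, 10.39 and 10.86 against 10.29, 10.76 and 10.43 and gave -0.28 (interval -0.76 to 0.20). Plod3, which also adds sugars to hydroxylysine, had the narrowest spread of these and gave 0.05 (interval -0.20 to 0.30). In all 6 genes control array 2 was the lowest control and YY1bKO array 1 the lowest YY1bKO array. None of the 6 was called by limma, and none had an unadjusted p under 0.05. The summed skeletal muscle markers were highest in control array 2, at 207418. In YY1bKO array 1 their sum of 94128 lay between those of the other YY1bKO arrays, 79256 and 107922. The part of muscle in the values of these 6 genes was not tested.

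Few other genes of collagen maturation were called. Of 24 measured, 1 was higher and 2 were lower, or 4.17% and 8.33% against 10.2% and 8.09% of all genes, with a median log2 fold change of -0.11 (2 and 9 at a raw p under 0.05 in limma). Ppib, a cyclophilin that helps the helix to fold, read 10.26, 10.30 and 10.12 in control and 10.59, 10.69 and 10.60 in YY1bKO arrays (0.40 ± 0.08, SE; limma adjusted p = 0.02). Tmem38b, an ion channel of the endoplasmic reticulum, fell by 0.62 (adjusted p = 0.0164), and Creb3l2, a transcription factor of secretory genes, fell by 0.49 (adjusted p = 0.0191). P4hb, the partner subunit of P4ha1, gave 0.12 (adjusted p = 0.566), and Pcolce, an enhancer of procollagen cleavage, gave -0.42 (adjusted p = 0.11). The Ppib call was lost without any 1 array except control array 2, without which 3 genes were higher and 6 lower. The counts were 0 and 5 without control array 3, and 0 and 1 without YY1bKO array 3. They were 0 and 0 without control array 1, YY1bKO array 1 or YY1bKO array 2. Of all genes 13.4% were higher and 11.6% lower without control array 2, and 4.41% to 7.63% and 3.76% to 6.39% in the other fits.

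Among 11 measured collagen receptors and uptake genes, 2 were lower and 0 higher (3 and 0 at a raw p under 0.05), with a median of -0.18. That is 18.2% lower, against 8.09% of all genes. Ddr1, a collagen-binding receptor tyrosine kinase, read 8.81, 8.20 and 8.55 in control and 7.996, 7.65 and 7.78 in YY1bKO arrays (-0.71 ± 0.17, SE; limma adjusted p = 0.0327). Itgb1, the beta chain shared by the collagen-binding integrins, fell by 0.41 (adjusted p = 0.0191). In the mean over each gene's probe sets neither was called, with Ddr1 at -0.21 (adjusted p = 0.133) and Itgb1 at -0.24 (0.0585). The number of lower genes was 0 without control array 1, YY1bKO array 1 or YY1bKO array 2, and 1 without control array 3 or YY1bKO array 3. Of all genes 3.76% to 6.39% were lower in these fits. In the list of collagenases, gelatinases and their inhibitors 1 gene of 12 was lower, Mmp13, which is 8.33% against 8.09% of all genes, and 0 were higher (1 and 0 at a raw p under 0.05). Mmp13, a collagenase, was dim and fell by 0.63 (adjusted p = 0.00849). The count was 3 without control array 2 and 2 without control array 3, fits in which 11.6% and 6.39% of all genes were lower.

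Collagen IV, the network of basement membranes, came close to a call in 1 chain. Col4a2 read 10.99, 10.55 and 10.67 in control and 10.24, 10.09 and 10.46 in YY1bKO arrays. The groups did not overlap, and the difference of -0.47 (95% interval -0.82 to -0.12) had a limma adjusted p of 0.073, or 0.0327 without control array 2. In the fit without that array 11.6% of all genes were lower, against 8.09% with all arrays. Col4a1, the other chain of the same trimer, read 11.56, 11.16 and 11.06 against 11.003, 10.88 and 11.12 and gave -0.26 (interval -0.61 to 0.09). Both of its probe sets gave -0.26. Col4a1 and Col4a2 lie head to head, and their promoter windows of 300 bases share 78 bases. The remaining chains, Col4a3 to Col4a6, were dim and lay between -0.10 and 0.10.

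The basement membrane collagens with sugar side chains, the multiplexins, were not called by their brightest probe sets. Col15a1, of the capillary and muscle basement membrane, read 7.35, 7.12 and 6.87 against 7.27, 7.09 and 7.15 and gave 0.06 (interval -0.26 to 0.37). Col18a1, the source of endostatin, read 7.69, 7.56 and 7.37 in control and 7.09, 7.27 and 7.42 in YY1bKO arrays and gave -0.28 (interval -0.57 to 0.01). A second Col18a1 probe set, with 7.35, 7.21 and 7.01 against 6.68, 6.77 and 6.71, did not overlap and fell by 0.47 (adjusted p = 0.0266 over all probe sets).

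The partners of collagen IV in the basement membrane held mostly lower calls. Of 20 measured, 4 were lower and 1 higher (7 and 3 at a raw p under 0.05 in limma), with a median log2 fold change of -0.14. The lower share was 20.0%, against 8.09% of all genes. The 1 higher gene was a smaller share of the list than the 10.2% called higher among all genes. Nid1, the nidogen that links laminin to collagen IV, read 10.51, 10.15 and 10.03 in control and 9.72, 9.501 and 9.61 in YY1bKO arrays (-0.62 ± 0.14, SE; limma adjusted p = 0.0264). The laminin chains Lamb2 and Lamc1 fell by 0.58 (adjusted p = 0.0306) and 0.35 (0.033), and Fbln2, a fibulin of vessel walls, fell by 0.97 (0.0115). Lama4, the laminin alpha chain of adipocytes and endothelium, rose by 0.64 (adjusted p = 0.0423). In the mean over probe sets the calls of Nid1 (adjusted p = 0.0554) and Lama4 (0.0611) were lost. The lower count was 2 without control array 1 or YY1bKO array 3, 7 without control array 2, 1 without YY1bKO array 1 and 0 without YY1bKO array 2. The higher count was 0 without any array other than control array 2. Of all genes 11.6% were lower without control array 2, and 3.76% to 4.37% without control array 1 or a YY1bKO array.

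**Figure D4:**
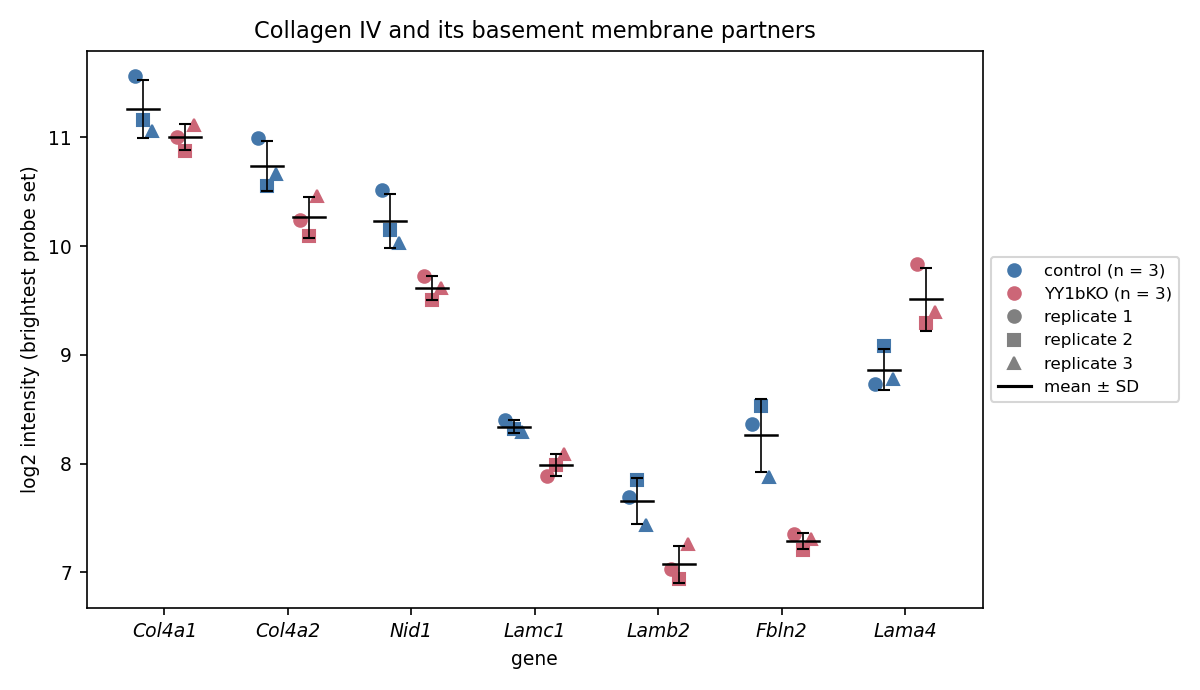
Log2 intensity (vertical axis) of Col4a1, Col4a2 and 5 basement membrane partner genes in 3 control (blue) and 3 YY1bKO (red) arrays, with bars for mean and SD. Nid1, Lamc1, Lamb2 and Fbln2 are lower and Lama4 is higher in all 3 YY1bKO arrays, while the groups of Col4a1 overlap.

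The marker lists of endothelial cells and of pericytes and smooth muscle, cells that make much of this matrix, held lower calls. Of 12 endothelial markers 5 were lower and 0 higher in limma (10 and 0 at a raw p under 0.05). That is 41.7% lower, against 8.09% of all genes and 14.0% in the fit without dim genes. The 5 were Cdh5, Kdr, Tek, Egfl7 and Cldn5. Of the 12 markers 11 were above the median intensity. Their summed intensity was 4982 to 6083 in control and 3524 to 3822 in YY1bKO arrays. Of 12 pericyte and smooth muscle markers 5 were lower and 0 higher (5 and 1 at a raw p under 0.05), which is also 41.7% lower. The 5 were Rgs5, Cspg4, Pdgfrb, Notch3 and Kcnj8. By point estimate 6 of the 12 were positive, none of them called. They were Cnn1 at 0.49 (limma adjusted p = 0.0548), Tagln at 0.38, Myh11 at 0.33, Lmod1 at 0.21, Acta2 at 0.20 and Des at 0.17. The sum of the 12 was 8917 to 12426 in control and 7896 to 8215 in YY1bKO arrays. The lower endothelial count was 2 without control array 1, 9 without control array 2 and 1 to 3 without a YY1bKO array. In the other list it was 2 without control array 1 or YY1bKO array 2 and 3 without YY1bKO array 1 or 3. Of all genes 4.37% were lower without control array 1, 11.6% without control array 2 and 3.76% to 4.14% without a YY1bKO array. The part of these cells in the values of Col4a2, Col8a1, Lox or the basement membrane partners was not tested.

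The remaining collagens were mostly dim. Col9a3, a chain of the fibril-associated collagen IX, did not overlap between groups (5.39, 5.43 and 5.60 in control, 5.77, 6.09 and 5.76 in YY1bKO arrays) and gave 0.40 (limma adjusted p = 0.0647). Col25a1, a transmembrane collagen of neurons and muscle, gave 0.32 (adjusted p = 0.0779), and Col12a1, a fibril-associated collagen, gave -0.28 (adjusted p = 0.0957). The other 9 dim collagens outside the classes already given, namely Col9a1, Col9a2, Col13a1, Col17a1, Col19a1, Col22a1, Col26a1 and, among the fibrillar ones, Col2a1 and Col11a1, lay between -0.20 and 0.19 and were not called. Col16a1, above the median intensity, gave 0.02 (interval -0.20 to 0.25).

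Of the 24 member genes with more than 1 probe set, 18 had all of them on the same side of 0 and 6 did not. Over all 74 member probe sets 6 were higher and 5 lower when adjusted over all probe sets, while 16.0% of all probe sets were called, 8.83% higher and 7.16% lower. The 6 higher ones belonged to Col20a1, Col11a2, Col7a1 and Col9a3, and the 5 lower ones to Lox, Col8a1 and Col18a1.

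**Figure D5:**
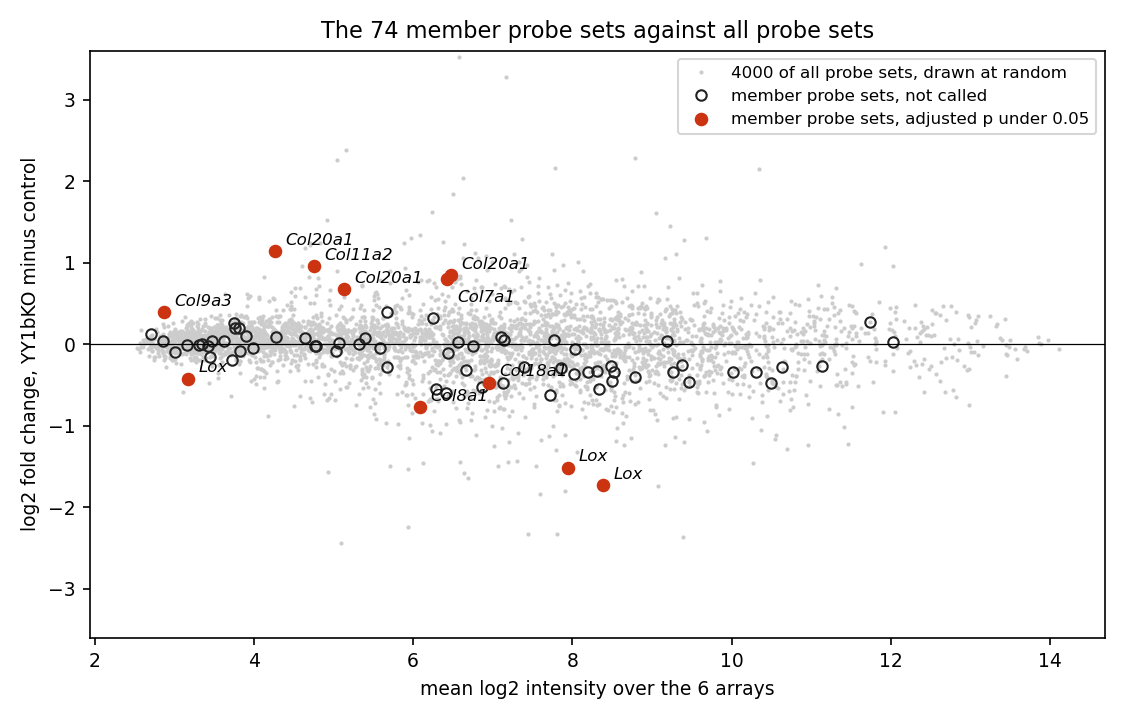
Log2 fold change (vertical axis) against the mean log2 intensity over the 6 arrays (horizontal axis) for the 74 member probe sets, with 4000 of all probe sets in grey; red marks the 11 member probe sets with an adjusted p under 0.05. The bright Lox probe sets lie at -1.73 and -1.51, below all other members, and each called rise lies at or below the median intensity.

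Pairs of members that sit next to each other in the gene order were set side by side. Col3a1 and Col5a2 gave 0.03 and -0.34, Col6a2 and Col6a1 gave -0.46 and -0.40, Col4a1 and Col4a2 gave -0.26 and -0.47, and Col9a1 and Col19a1 gave -0.02 and 0.19. The remaining pairs, Col4a4 with Col4a3 and Col4a6 with Col4a5, gave -0.09 with 0.08 and 0.10 with -0.10. None of these genes was called.

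By Pearson's r over the 6 arrays the genes most like Lox were Wasf2 (0.999), Sox17 (0.998) and Cdh9 (0.995), and those most like Col11a2 were Lgals4 (0.999), 1810044D09Rik (0.999) and Ovgp1 (0.999). They are a description over 6 points and carry no test.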

How the data were processed

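RNA of 6 brown adipose samples was labelled as biotinylated cRNA from 6 ug and hybridised to Affymetrix arrays, per the labels' protocols. The deposited values are intensities on a linear scale, from 4.91 to 21219, made by the authors with RMA, per the submitters' processing notes, which name no version. They were transformed to log2 without a pseudocount. RMA gives the arrays a common distribution and shrinks differences of dim probe sets. The table holds no detection calls, scan dates or batches.

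Of 22626 probe sets other than the 64 Affymetrix controls, 20380 had 1 gene symbol, 691 several and 1555 none in the platform annotation. Each of 12393 genes was represented by its probe set with the highest mean. Groups were compared with limma 3.58.1 in R 4.3.3 (lmFit, eBayes, two-sided, Benjamini-Hochberg over all genes, called at adjusted p under 0.05) over all 6 arrays. A second fit ran over all probe sets. The fit was tested on simulated data with independent noise of a capped spread. That spread was narrower than in members such as P4ha1, so the simulation does not cover them. Intervals of 95% are unadjusted.

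The labels do not say that replicates are separate mice, so a p-value reflects only how far these samples spread, possibly for technical reasons. Members, lists and the rule for named genes (all members, and up to 4 of each other list by smallest p) were chosen with earlier results of these data known. P4hb, Pcolce, Eln, Dcn, Pdgfra, the array values of Col14a1 and Col9a3 and the set of 15 collagens were picked after their values were seen. Alternatives were a filter on dim genes, the mean over probe sets, quantile normalization, median centring, limma's trend and robust options, the replicate number as a block, leaving out each array, and muscle and fibroblast marker covariates chosen after seeing the data.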

Additional observations from a re-analysis of the deposited data

How the results depend on the processing

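Over the 46 members, 14 alternatives gave 620 log2 fold changes, of which 596 kept their side of the threshold, 15 became called, 9 lost a call and 0 were called with the opposite sign. Calls of Lox, Col11a2 and Col20a1 were kept in each alternative in which the gene was tested. Members called higher and lower numbered 3 and 2, and 0 and 1 (0% and 4.55%) without dim genes, where 16.2% and 14.0% of all genes were called and the members' median was -0.34 against 0.01. The lower count was 1 in the mean over probe sets, 1 with the replicate block and 6 with the muscle covariate, under which 29.5% of all genes were called. With arrays left out the higher count ranged from 2 to 4, the lower count from 1 to 9 and the median from -0.16 to -0.06.

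Collagen maturation genes called higher, 1 at first, were 2 without dim genes, 2 after quantile normalization and 0 with the replicate block, and those called lower, 2 at first, were 1 with the block; leaving out arrays gave 0 to 3 and 0 to 6. Receptor genes called lower, Ddr1 and Itgb1 at first, were 1 other gene, Mrc2 (adjusted p = 0.04999), in the mean over probe sets, and 0 to 2 with arrays left out. Basement membrane partners called higher, 1 at first, were 0 in the mean over probe sets and 0 with the block, and those called lower, 4 at first, were 3 in each, without Nid1 in the mean and with Fbln2, Nid1 and Nid2 under the block; leaving out arrays gave 0 to 1 higher and 0 to 7 lower. Fewer genes were tested without dim genes, and 1 array fewer when one was left out; otherwise the cause was not tested.

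Deviations of same-numbered arrays had r = -0.25, 0.11 and 0.26 for replicates 1, 2 and 3, within the -0.37 to 0.35 of other pairs. With 3 arrays in each group these values cannot show whether same-numbered arrays share more than a number. The block, which called 10.6% of all genes, ended the calls of Col8a1 (adjusted p = 0.0825), Lamb2 (0.0925), Lamc1 (0.0996) and Ltbp4 (0.11), among others outside the members.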
